A study of Mus musculus with 10 samples.

Results

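The NRF2 antioxidant and glutathione programme was followed through 36 genes, chosen by name from the deposited table of 22740 protein-coding genes; all 36 had a row there and all 36 passed the filter on low counts. The libraries came from oesophageal tissue of 10 mice labelled C57BL/6 and given 4-NQO (4-nitroquinoline 1-oxide), a carcinogen that forms DNA adducts and induces squamous tumours of the mouth and oesophagus. Both groups received the carcinogen, 5 mice labelled as Grhl3 knockout (Grhl3 KO) and 5 labelled as wild type, with no age in the labels used here. The title of the series speaks of a conditional knockout and the Grhl3 KO columns carry the tag L2Cre; no source used here names the promoter that drives the Cre recombinase. The Grhl3 KO tissue carries a tumour label and that of wild type an oesophagus label, whereas the design text calls both tumours, so genotype and tissue label cannot be told apart.

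NRF2, encoded by Nfe2l2, is a bZIP transcription factor that KEAP1 normally holds for ubiquitination by a CUL3 ligase. When electrophiles or oxidants modify KEAP1, NRF2 escapes, pairs with a small MAF protein and binds antioxidant response elements in genes for glutathione synthesis, thioredoxin reduction, conjugation and NADPH supply. In the oesophagus the pathway is known for the thick keratin layer of mice without Keap1 and for recurrent NFE2L2 and KEAP1 mutations in squamous carcinoma, and 4-NQO itself is a substrate of glutathione conjugation.

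The element that NRF2 binds has a core that was searched here as TGACNNNGC and TGAGNNNGC on both strands of the 250 bases before each RefSeq gene start. Of the 36 genes, 30 had such a promoter in the RefSeq table (build GRCm38.p6); Hmox1, Gclc, Gsr, Gsta4, Aldh3a1 and Abcc1 had none. The core was found before 12 of these 30 genes (40.0%), against 25.7% of the 27025 genes in the table. TGACNNNGC alone was present for 23.3% against 11.5%, and TGAGNNNGC alone for 16.7% against 16.3%. Cores that also hold TGANTCA, the letters of an AP-1 site, stood before Srxn1, Prdx1, Osgin1 and Gstp1. The 60 bases around a core are printed for 6 genes. They are Srxn1, Prdx1 and Txnrd1 of the thioredoxin system, Gclm and Slc7a11 of glutathione synthesis, and the growth regulator gene Osgin1. Each sequence runs 5′ to 3′ in the direction of the gene, with the matched letters in capitals. The letters are those of the gene's own strand, so a core on the other strand reads as its reverse complement.
Srxn1 (chr2:152105453-152105512, plus strand, GRCm38): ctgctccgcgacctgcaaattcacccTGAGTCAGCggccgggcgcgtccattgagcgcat
Prdx1 (chr4:116685440-116685499, plus strand, GRCm38): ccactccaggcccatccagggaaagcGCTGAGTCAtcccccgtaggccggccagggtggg
Osgin1 (chr8:119437022-119437081, plus strand, GRCm38): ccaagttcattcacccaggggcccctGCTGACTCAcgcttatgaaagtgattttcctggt
Txnrd1 (chr10:82859088-82859147, plus strand, GRCm38): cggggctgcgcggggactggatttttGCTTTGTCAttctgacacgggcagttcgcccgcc
Gclm (chr3:122245397-122245456, plus strand, GRCm38): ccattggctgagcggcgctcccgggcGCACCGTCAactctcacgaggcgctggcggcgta
Slc7a11 (chr3:50443677-50443736, minus strand, GRCm38): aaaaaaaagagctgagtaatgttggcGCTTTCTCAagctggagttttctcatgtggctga
In Srxn1, Prdx1 and Osgin1 the capitals begin 45, 133 and 99 bases before the start, and in Txnrd1, Gclm and Slc7a11 they begin 92, 134 and 97 bases before it. The match is a description of these letters. Nqo1 had a promoter in the table and no match in this window, which says only that the letters are not there.

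The libraries held 15315418 to 32884323 counts each. Grhl3 itself, the targeted gene, was no lower in Grhl3 KO than in wild type. Its level was 135, 234, 191, 235 and 317 CPM (counts scaled to library size) in Grhl3 KO libraries 1026, 1027, 1035, 1036 and 1043, and 363, 114, 164, 283 and 109 CPM in wild-type libraries 1028, 1048, 1528, 1555 and 1561 (log2 fold change 0.11, edgeR adjusted p = 0.979). Counts summed over the whole gene do not show whether part of the transcript is missing, so "Grhl3 KO" means the libraries so labelled. The squamous keratin genes Krt5 and Krt13 were abundant in both groups. Krt5 was at 9679 ± 1757 CPM in Grhl3 KO against 11380 ± 1507 CPM in wild type (SD, n = 5 each). Krt13 was at 14530 ± 4391 CPM in Grhl3 KO against 18520 ± 14760 CPM in wild type. Other squamous markers varied. Sprr3 was at 722 ± 254 CPM in Grhl3 KO against 1585 ± 782 CPM in wild type, and Crnn at 7.42 ± 2.38 against 4.02 ± 1.90 CPM. Of 8 basal markers 1 was higher in Grhl3 KO and 7 lower, and of 10 suprabasal markers 2 were higher and 8 lower. After adjustment in edgeR 0 of these markers passed. The 4 Y-linked genes summed to 0.0527 and 0.0539 CPM in wild-type libraries 1528 and 1555 and to 72.3 CPM in 1561, against 154 to 203 CPM in the other libraries. Wild type therefore holds 2 libraries with almost no Y-linked counts. The libraries are named below by these sample numbers, always in the order just given.

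Between Grhl3 KO and wild type, 26 of the 36 genes had a positive fitted difference (higher in Grhl3 KO) and 10 a negative one, with a median log2 fold change of 0.17. Over all 13731 genes tested, 49.7% were higher and the median was −0.0011. After Benjamini-Hochberg adjustment in edgeR (quasi-likelihood, threshold 0.05) none of the 36 passed, where 0.0801% of all genes did. At an unadjusted p under 0.05, 4 of the 36 were higher (Nqo1, Gclc, Txnrd1 and Srxn1) and 0 were lower, where 7.16% of all genes passed in either direction and 3.44% were higher; DESeq2 called 0 of the 36 after adjustment (0.878% of all genes) and had 6 at an unadjusted p under 0.05 (8.4%). In limma voom 0 of the 36 passed after adjustment (0.00728% of all genes) and 4 before it (6.69%). No gene of the 36 had its Grhl3 KO libraries all above or all below those of wild type, where 0.787% of all genes had Grhl3 KO above and 0.568% had it below. In bulk tissue, fewer cells of a type and less RNA per cell cannot be told apart.

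Grhl3 KO library 1043 held the highest level of the 10 libraries for 20 of the 36 genes, where 10.3% of all genes tested had their highest level there. It exceeded the highest wild-type library for 23 of the 36, while library 1036 did so for 13, 1026 for 7, 1027 for 3 and 1035 for 2. The same held for 16.2% of all genes tested in 1043, 14.2% in 1036, 16.2% in 1026, 12.8% in 1027 and 14.1% in 1035. Expressed against the wild-type mean, the median of the 36 genes stood at 0.58 log2 units in 1043 and 0.29 in 1036. It stood at 0.060 in 1026, 0.078 in 1027 and −0.072 in 1035, within the range of the wild-type libraries themselves, which ran from −0.21 in 1048 to 0.18 in 1555. The 36 genes took 1.55% of all counts in 1043, 1.01 to 1.27% in the other 4 Grhl3 KO libraries and 0.996 to 1.18% in wild type.

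**Figure D1:**
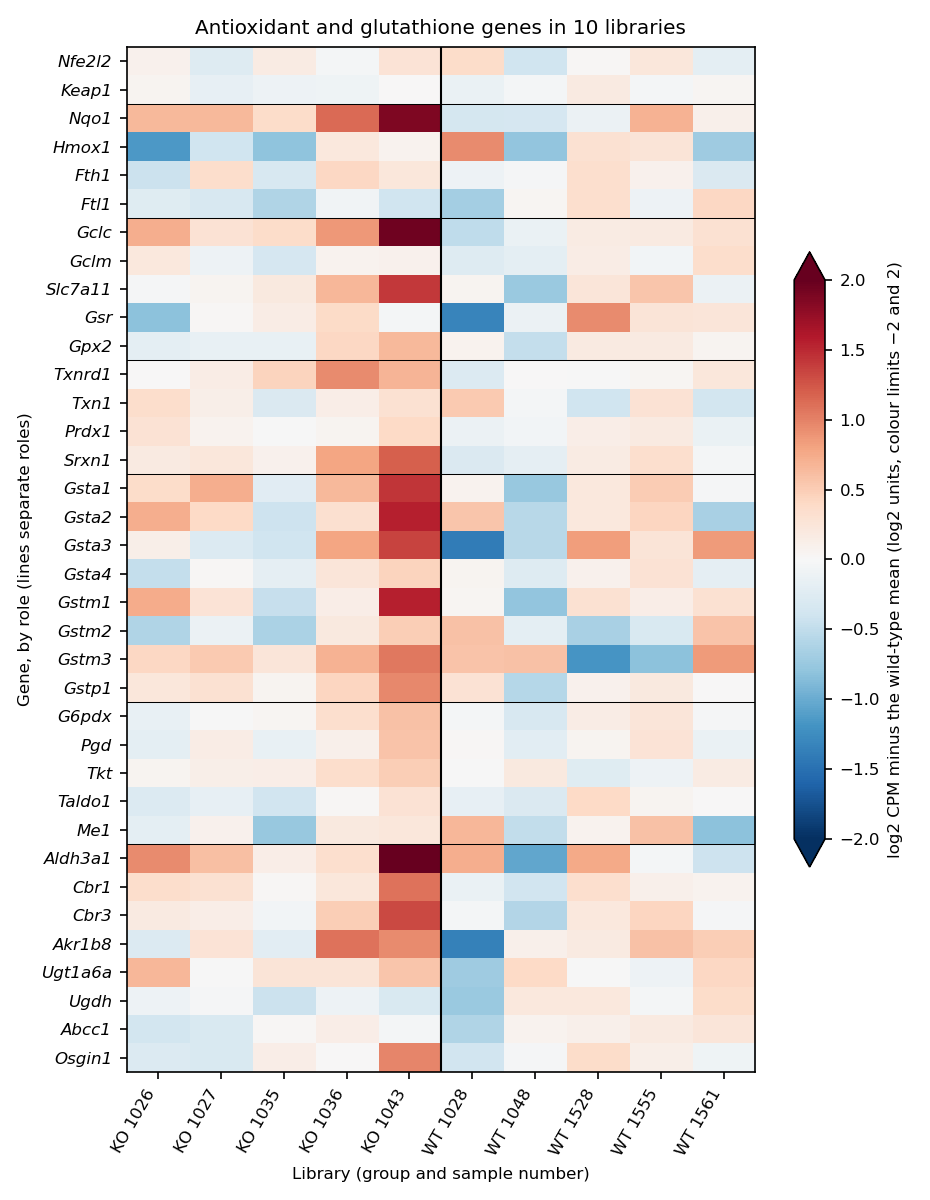
Level of each of the 36 genes (rows, grouped by role) in each library (columns), as log2 CPM minus the mean of the 5 wild-type libraries, in log2 units. Red marks higher and blue lower levels; column KO 1043 is red for most genes, and column KO 1036 less so.

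Without library 1043, 20 of the 36 genes were higher and 16 lower, the median log2 fold change was 0.048, and 48.4% of all genes tested were higher. The fitted difference was smaller or more negative for 33 of the 36 genes when that library was set aside. The median move over the 36 was −0.13, and 8 (22.2%) moved down by more than 0.3. Over all genes tested, 52.1% had a lower difference without 1043, the median move was −0.0028 and 2.64% moved down by more than 0.3. No other library left out on its own moved any of the 36 by more than 0.3; the number of higher genes then ran from 24 to 29 and the median from 0.13 to 0.24. None of the 36 passed after adjustment without 1043 either (smallest edgeR adjusted p = 0.644), where 0.00722% of all genes passed. At an unadjusted p under 0.05 in edgeR 3 of the 36 passed, where 6% of all genes did. In the remaining 9 libraries the highest level lay in a Grhl3 KO library for 19 genes, 12 of them in 1036, and in a wild-type library for 17. Over all genes tested, 36.5% had their highest of 9 in a Grhl3 KO library, 9.09% in 1036, and 63.5% in a wild-type library. On the wild-type side, library 1028 held the lowest level of all 10 for 12 of the 36 genes and library 1048 for 11, where 13.9% and 9.22% of all genes tested had their lowest level in these libraries.

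**Figure D2:**
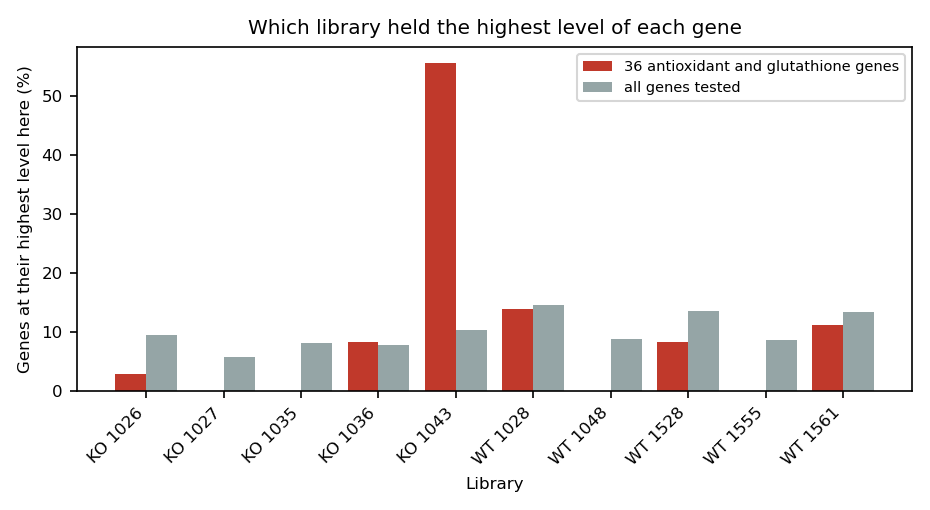
Share of genes (percent, vertical axis) whose highest level among the 10 libraries lay in each library (horizontal axis), for the 36 antioxidant and glutathione genes (red) and for all 13731 genes tested (grey). Library KO 1043 held the highest level of 55.6% of the 36 genes and of 10.3% of all genes.

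The summed markers of skeletal muscle and of basal epithelium also set library 1043 apart. Its suprabasal sum was the highest of the Grhl3 KO libraries, and only wild-type library 1028, at 101000 CPM, was above it. The 15 skeletal muscle markers summed to 6510 CPM in 1043, against 894 to 3940 CPM among the remaining Grhl3 KO libraries and 1540 to 3450 CPM in wild type, and 15 of 15 had positive fitted differences with 0 called. Without 1043, 8 of these 15 were positive and 7 negative, with a median of 0.022. The 8 markers of basal epithelium summed to 27400 CPM in 1043, the lowest of the 10 libraries, against 30900 to 36000 and 30500 to 39600 CPM. The 10 suprabasal markers summed to 58200 CPM in 1043, against 35000 to 50100 CPM among the remaining Grhl3 KO libraries and 24400 to 101000 CPM in wild type. No marker of these 3 lists was at 0 in all libraries. In 1043 the summed smooth muscle, fibroblast, endothelium and leukocyte markers lay within the wild-type range. So did the neural and glial, the adipocyte, and the hepatocyte and glandular markers. With the muscle level as a term in the fit, 25 of the 36 genes were higher with a median of 0.14, and with the epithelial level as a term 29 were higher with a median of 0.27. Whether these levels account for the high values of library 1043 was not tested. With the sample number series (1026 to 1048 against 1528 to 1561) as a term, which leaves 5 Grhl3 KO against 2 wild-type libraries, 31 were higher with a median of 0.35. Without wild-type libraries 1528 and 1555, the 2 with almost no Y-linked counts, 29 were higher with a median of 0.25.

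The regulators themselves did not differ beyond their spread. Nfe2l2 (ENSMUSG00000015839, chromosome 2, 75675513 to 75704641, GRCm38) stood at 444, 349, 469.7, 409.6 and 508 CPM in Grhl3 KO against 538, 317, 424, 488 and 364 CPM in wild type. The groups overlapped throughout, with wild-type libraries at both ends, and the log2 fold change was 0.033 (95% limits −0.31 to 0.38; adjusted p = 0.986 in edgeR). Keap1, encoding the sensor that restrains NRF2, stood at 88.1, 75.3, 79.0, 79.2 and 85.4 CPM in Grhl3 KO against 76.8, 82.2, 95.5, 82.2 and 86.7 CPM in wild type. Its values spanned a narrow range in both groups, with a log2 fold change of −0.058 (95% limits −0.23 to 0.12). Among the 10 libraries, 1043 ranked 2 for Nfe2l2, after wild-type library 1028, and 4 for Keap1. The ratio of Nfe2l2 to Keap1 counts was 5.35 ± 0.58 in Grhl3 KO against 5.09 ± 1.33 in wild type (SD over 5 libraries a group; two-sided exact permutation p = 0.690).

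Nqo1, encoding the quinone reductase most often used as a readout of NRF2 activity, had the smallest p of the 36 genes (ENSMUSG00000003849, chromosome 8, 107388225 to 107403206). Its level was 235, 234, 194, 328 and 547 CPM in Grhl3 KO against 118, 119, 138, 243 and 162 CPM in wild type. Only libraries 1036 and 1043 exceeded the highest wild-type library, 1555, while the other 3 Grhl3 KO libraries lay above the 4 remaining wild-type libraries. The log2 fold change was 0.98 (SE 0.30, 95% limits 0.32 to 1.64; adjusted p = 0.455 in edgeR) and 0.67 without library 1043. Hmox1, encoding the inducible haem oxygenase, had the opposite sign at 99.6 ± 37.9 CPM in Grhl3 KO against 138 ± 69.0 CPM in wild type (log2 fold change −0.47, 95% limits −1.27 to 0.32), and wild-type library 1028 was its highest at 240 CPM. Of the ferritin chains, which store iron, the heavy chain gene Fth1 gave a log2 fold change of 0.081, and the light chain gene Ftl1 one of −0.36 (95% limits −0.78 to 0.052; adjusted p = 0.753 in edgeR). Of the longest Ftl1 transcript, 94.0% lies in stretches nearly identical to other genes, so its count is uncertain.

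The genes for the 2 subunits of glutamate-cysteine ligase, the rate-limiting enzyme of glutathione synthesis, had unequal fitted differences. The catalytic subunit gene Gclc (ENSMUSG00000032350, chromosome 9, 77754535 to 77794485) stood at 183, 135, 143, 204 and 428 CPM in Grhl3 KO against 78.0, 101, 124, 126 and 138 CPM in wild type. Of the 5 Grhl3 KO libraries 4 lay above every wild-type library, and 1043 was 2.58 times the mean of the other 4. The log2 fold change was 0.95 (SE 0.31, 95% limits 0.27 to 1.62; adjusted p = 0.483 in edgeR) and 0.55 without 1043. The modifier subunit gene Gclm was at 473 ± 66.1 CPM in Grhl3 KO against 479 ± 86.5 CPM in wild type (log2 fold change −0.017, 95% limits −0.33 to 0.30). Within each library, the ratio of Gclc to Gclm counts was 0.332, 0.305, 0.379, 0.411 and 0.854 in Grhl3 KO against 0.197, 0.245, 0.236, 0.275 and 0.227 in wild type. Every Grhl3 KO library had a higher ratio than every wild-type library, with means of 0.456 ± 0.226 and 0.236 ± 0.0285 (SD over 5 libraries a group; two-sided exact permutation p = 0.00794, the smallest this design can give, and 0.0318 adjusted over the 4 ratios computed). The ratio was tested after the counts of both genes had been seen, so this p describes these libraries and is no independent test.

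Library 1043 held the highest Gclc to Gclm ratio, so leaving it out could not make the groups overlap and is no check of the separation. Without it the Grhl3 KO mean was 0.357 ± 0.0473 (SD, n = 4). The lowest Grhl3 KO ratio was 0.305, in library 1027, and the highest wild-type ratio was 0.275, in library 1555. No test is given for these 9 libraries, since the ratio was chosen after its values were seen. The other 3 ratios overlapped between the groups: sulfiredoxin to its substrate peroxiredoxin (Srxn1 to Prdx1) was 0.258 ± 0.0737 in Grhl3 KO against 0.199 ± 0.0188 in wild type (exact two-sided permutation p = 0.127), and Fth1 to Ftl1 was 4.31 ± 0.958 and 3.38 ± 1.04 (exact two-sided permutation p = 0.198).

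**Figure D3:**
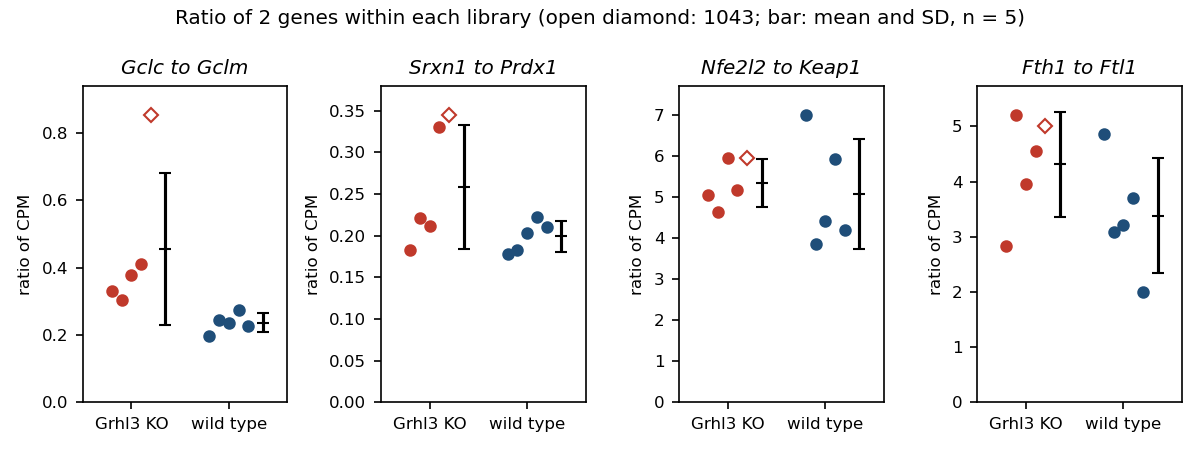
Ratio of the CPM of 2 genes within each library (vertical axes, no unit) in Grhl3 KO (red) and wild type (blue); each point is a library, the open diamond is library 1043, and bars give the mean and SD of 5 libraries. For Gclc to Gclm the Grhl3 KO ratios run from 0.305 to 0.854 and the wild-type ratios from 0.197 to 0.275, while the other 3 ratios overlap.

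Libraries 1036 and 1043 were the highest of the 10 for Slc7a11, but not for Slc3a2. Slc7a11, encoding the cystine importer that feeds glutathione synthesis, stood at 209, 222, 245, 337 and 569 CPM in Grhl3 KO against 221, 128, 254, 313 and 198 CPM in wild type. Libraries 1036 and 1043 were above all wild-type libraries and the other 3 Grhl3 KO libraries lay among them (log2 fold change 0.51, edgeR adjusted p = 0.792, and 0.18 without 1043). Slc3a2, a glutathione gene of the wider list given below, stood at 187.3, 189.3, 200.4, 231.9 and 226 CPM in Grhl3 KO. Its wild-type libraries ran from 156.3 to 262.5 CPM, with 1528 the highest (log2 fold change −0.045). Gsr, encoding glutathione reductase, did not share the pattern of Slc7a11 either. It was at 106 ± 28.8 CPM in Grhl3 KO against 120.1 ± 59.0 CPM in wild type (log2 fold change −0.18). Gpx2, encoding an epithelial glutathione peroxidase, stood at 594, 613, 609.9, 902 and 1064 CPM in Grhl3 KO against 711, 485, 764, 772 and 705 CPM in wild type. Wild-type library 1048 was the lowest of the 10 for Gpx2, and 1036 and 1043 the highest (log2 fold change 0.14, and −0.02 without 1043).

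In the thioredoxin system all 4 genes had positive fitted differences, with and without library 1043, and 0 passed after adjustment. Txnrd1, encoding the cytosolic thioredoxin reductase, stood at 65.2, 71.7, 88.1, 126 and 104 CPM in Grhl3 KO against 53.7, 65.3, 64.7, 66.9 and 76.0 CPM in wild type. Its highest library was 1036, and 1035, 1036 and 1043 exceeded all wild-type libraries (log2 fold change 0.48, 95% limits 0.10 to 0.86; adjusted p = 0.568 in edgeR). The value moved less than that of Gclc or Nqo1 when 1043 was left out, to 0.42. Leaving out 1036 instead lowered it further, to 0.32. Srxn1, encoding sulfiredoxin, which restores overoxidized peroxiredoxins, was at 227 ± 81.2 CPM in Grhl3 KO against 155 ± 27.9 CPM in wild type (log2 fold change 0.55, 95% limits 0.06 to 1.03; adjusted p = 0.651 in edgeR, and 0.33 without 1043). The abundant genes of the group differed less: Prdx1 (peroxiredoxin) had a log2 fold change of 0.17 and Txn1 (thioredoxin) one of 0.095. Over the 12 genes with a core in their promoter, fitted differences ran from −0.23 (Ugdh) to 0.55 (Srxn1). Of these 12, 9 were positive and 3 negative (Ugdh, Taldo1 and Gclm), where 26 of all 36 were positive. Without 1043, Nfe2l2 (−0.03), Gsta3 (−0.10) and Osgin1 (−0.12) were negative as well. Nqo1, with the highest value of the 36, had no core in the window.

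Of the 8 glutathione S-transferase genes, which encode enzymes that conjugate glutathione to electrophiles, 7 were higher in Grhl3 KO and 5 without library 1043, again with 0 called. Gstm1 stood at 239, 173, 103, 157 and 422 CPM in Grhl3 KO against 147, 82.6, 176, 156 and 177 CPM in wild type. Library 1043 was 2.51 times the mean of the other Grhl3 KO libraries, library 1026 was next, and wild-type library 1048 was the lowest of the 10. Of its longest transcript 51.0% is nearly identical to a pseudogene, so its count is uncertain. Its log2 fold change was 0.56 (95% limits −0.20 to 1.32) and 0.18 without 1043. Gsta2 stood at 47.2, 37.5, 21.4, 35.5 and 84.1 CPM in Grhl3 KO against 42.0, 19.3, 33.2, 38.5 and 18.1 CPM in wild type; its log2 fold change of 0.57 became 0.22 without 1043. Its neighbour Gsta1 had 0.63 and 0.37. The longest transcripts of Gsta1 and Gsta2 lie wholly (100%) in stretches nearly identical to each other or to Gm10639 and Gm3776, so the split of reads between these genes is uncertain.

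Gsta3 changed sign without library 1043. It stood at 26.0, 19.8, 18.1, 41.5 and 61.8 CPM in Grhl3 KO against 9.05, 16.3, 43.1, 28.7 and 43.6 CPM in wild type, with log2 fold changes of 0.24 and, without 1043, −0.10. Gsta4, which acts on the lipid peroxidation product 4-hydroxynonenal, was the most abundant of the 36 genes per length and differed by 0.035 (95% limits −0.36 to 0.43). Gstp1 had a log2 fold change of 0.40 (95% limits −0.027 to 0.83) and 0.23 without 1043, with 86.1% of its longest transcript nearly identical to Gstp2 or a pseudogene. Gstm2 had −0.16, the single lower value in this group. Gstm3 was near the limit of detection with 2 to 17 counts per library, and its 0.44 has 95% limits of −0.60 to 1.49.

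**Figure D4:**
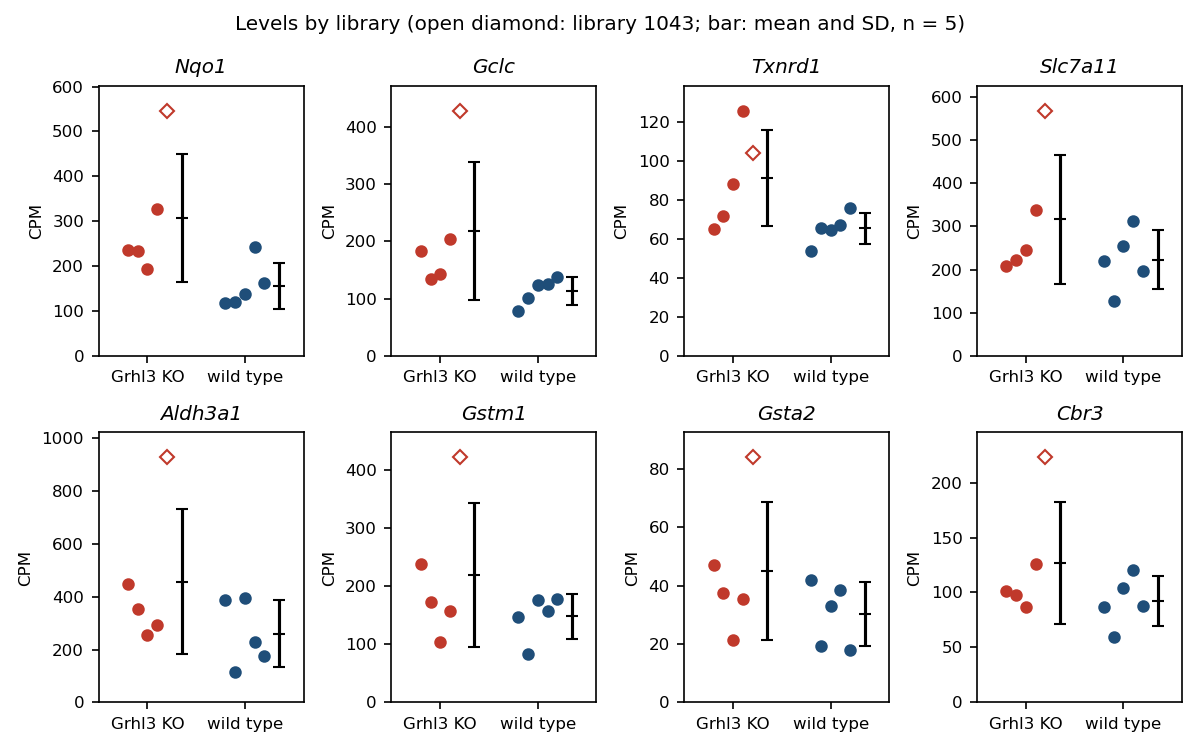
CPM of 8 genes by library (vertical axes start at 0) in Grhl3 KO (red) and wild type (blue), with library 1043 as an open diamond and bars for the mean and SD of 5 libraries. Library 1043 is the highest of the 10 for 7 of the 8 genes, and for Txnrd1 it is second to 1036. Those 7 genes moved by over 0.3 when 1043 was left out, so its high place in them partly follows from their choice. Gsta3 also moved by over 0.3 and is not shown.

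None of the 5 genes for enzymes that supply NADPH passed the test. In the oxidative pentose phosphate branch, G6pdx (glucose-6-phosphate dehydrogenase) had a log2 fold change of 0.17 (95% limits −0.17 to 0.51) and Pgd (6-phosphogluconate dehydrogenase) one of 0.11 (95% limits −0.23 to 0.45). In the non-oxidative branch, Tkt (transketolase) had 0.23 (95% limits −0.035 to 0.49) and Taldo1 (transaldolase) −0.10 (95% limits −0.45 to 0.24). Me1, the cytosolic malic enzyme, had −0.16 (95% limits −0.80 to 0.49), and its count is uncertain, since 49.8% of its longest transcript is nearly identical to 2 pseudogenes. Library 1043 held the highest level of G6pdx, Pgd and Tkt, at 1.44, 1.51 and 1.25 times the mean of the other Grhl3 KO libraries. Without it Pgd was at −0.03 and G6pdx at 0.049, so 2 of these 5 genes were higher and 3 lower, against 3 and 2 with it.

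Aldh3a1, encoding an aldehyde dehydrogenase of surface epithelia, moved the most of the 36 genes when library 1043 was left out. Its level was 448, 353, 257, 294 and 928 CPM in Grhl3 KO against 388, 114, 396, 227 and 175 CPM in wild type. Library 1043 was 2.75 times the mean of the other 4 Grhl3 KO libraries, which lay between 257 and 448 CPM and overlapped wild-type libraries 1028 and 1528. The log2 fold change was 0.81 (SE 0.42, 95% limits −0.12 to 1.74; adjusted p = 0.753 in edgeR) and 0.38 without 1043. Cbr3, encoding a carbonyl reductase, stood at 101, 97.9, 86.8, 126 and 223 CPM in Grhl3 KO against 87.2, 59.9, 104, 121 and 88.2 CPM in wild type, with 1036 and 1043 above all wild-type libraries. It had a log2 fold change of 0.46 and of 0.16 without 1043. The related Cbr1 had 0.43 (95% limits −0.018 to 0.87) and 0.20 without 1043.

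Akr1b8, encoding an aldo-keto reductase, stood at 162, 235, 168, 414 and 376 CPM in Grhl3 KO against 76.0, 208, 220, 293 and 274 CPM in wild type. Libraries 1036 and 1043 were high and wild-type library 1028 was far below the other 9 (log2 fold change 0.34, and 0.12 without 1028). Library 1028 also held the highest summed suprabasal markers (101000 CPM, against 24400 to 53900 in the other wild-type libraries) and leukocyte markers (23500 CPM, against 3220 to 22100), whose part in this was not tested. The leukocyte list includes S100a8 and S100a9, so this sum alone is no measure of leukocyte number. Ptprc, also in that list, was highest in 1028 too, at 31.3 CPM. It ran from 9.84 to 18.9 CPM in the other wild-type libraries and from 13.4 to 23.8 CPM in Grhl3 KO. The genes of glucuronidation and export gave no common direction. Ugt1a6a, a UDP-glucuronosyltransferase gene that shares 42.7% of its longest transcript with 8 other Ugt1a genes, had 0.31 (95% limits −0.16 to 0.78), and Ugdh, whose enzyme makes the UDP-glucuronic acid they use, had −0.23 (95% limits −0.63 to 0.17). Abcc1, encoding the exporter of glutathione conjugates MRP1, stood at 162, 168, 211, 229 and 202 CPM in Grhl3 KO against 138, 219, 223, 236 and 248 CPM in wild type, with 1028 again the lowest (log2 fold change −0.13). Osgin1, a growth regulator induced by oxidative stress, was at 20.2 ± 8.43 CPM in Grhl3 KO against 17.9 ± 3.42 CPM in wild type, where 1043 alone was high at 34.8 CPM (log2 fold change 0.17, and −0.12 without 1043).

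**Figure D5:**
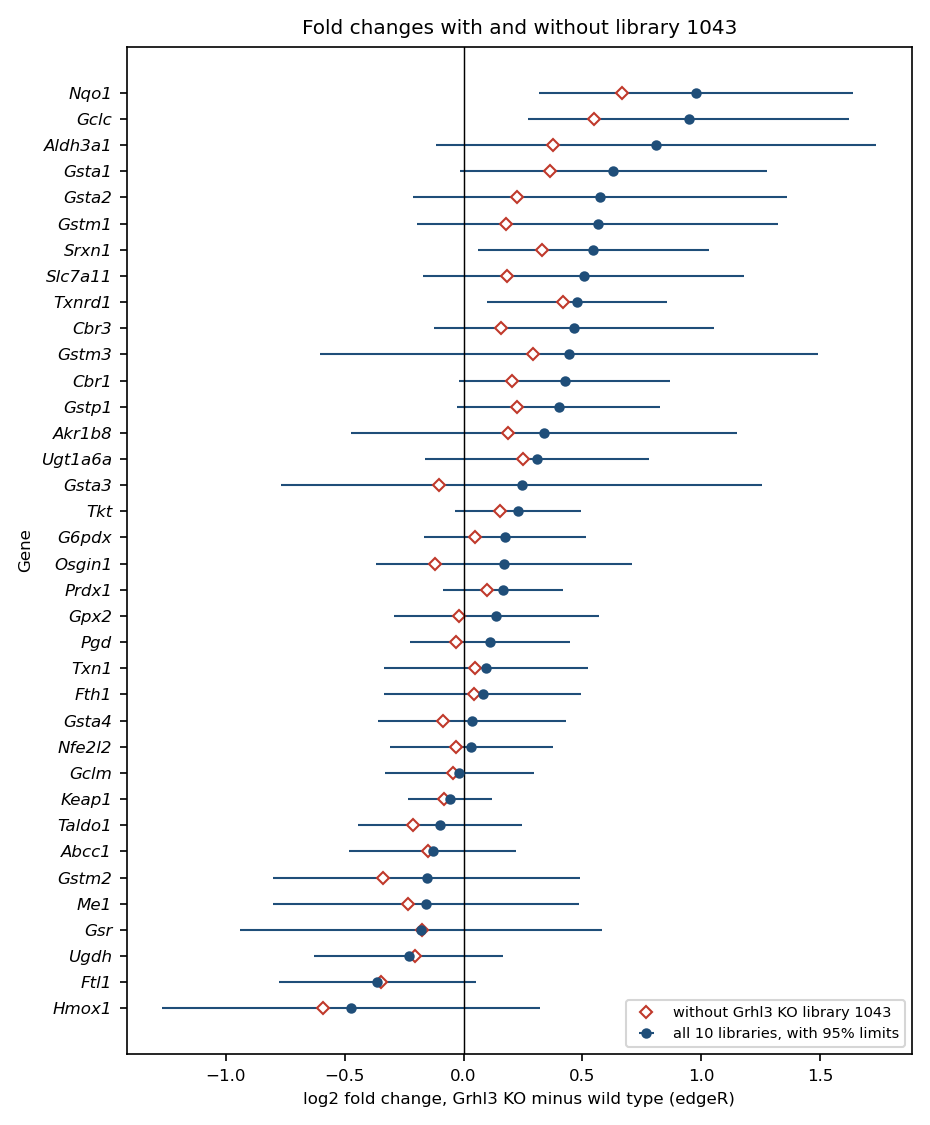
Log2 fold change of each of the 36 genes, Grhl3 KO minus wild type (horizontal axis), from edgeR with all 10 libraries (filled circles, bars for the 95% limits) and without library 1043 (open diamonds). The limits of 4 genes, Nqo1, Gclc, Srxn1 and Txnrd1, lie above 0, and 33 of the 36 diamonds lie to the left of their circles.

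Levels between genes were compared per length, as CPM per kilobase of annotated exon. In wild type, Gsta4 was the most abundant of the 36 at 1430 ± 217 and Txn1 followed at 1250 ± 353 (SD, n = 5), a gap smaller than either spread. Fth1, Prdx1, Ftl1 and Gpx2 came next at 303 ± 49.0, 255 ± 26.1, 248 ± 67.8 and 213 ± 36.4, each gap smaller than the larger SD of the neighbouring pair. Aldh3a1 stood at 134 ± 65.6, Nfe2l2 at 112 ± 23.6, Gclm at 76.1 ± 13.8 and Gclc at 30.1 ± 6.31. The lowest were Gstm3 at 0.323 ± 0.207 and Ugt1a6a at 2.86 ± 0.832. In Grhl3 KO the same scale gave Gsta4 1460 ± 357, Nqo1 198 ± 91.6 and Gclc 58.0 ± 32.0. Of the 6 genes of highest level per length, 5 differed by less than 0.2 on the log2 scale (Gsta4, Txn1, Fth1, Prdx1 and Gpx2), and the exception was Ftl1 at −0.36.

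A wider list of 83 antioxidant and glutathione genes outside the 36 was examined in the same fit. Of the 81 that were tested 48 were higher and 33 lower, with a median log2 fold change of 0.079 (0.018 without library 1043). edgeR called 0 of them after adjustment, where it called 0.0801% of all genes. At an unadjusted p under 0.05 in edgeR 10 passed, 8 higher and 2 lower. Over all genes 7.16% passed in either direction and 3.44% were higher. DESeq2, which called 0.878% of all genes, called 2 after adjustment, Gss and Gsto1. The groups did not overlap for 4 of the 81, all with Grhl3 KO above: Gss, Gsto1, Mafg and, named after its values were seen, Akr1a1, where 0.787% of all genes had Grhl3 KO above. Library 1043 held the highest level for 20 of the 81, where 10.3% of all genes had theirs.

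Gss, encoding glutathione synthetase, the enzyme after glutamate-cysteine ligase, stood at 141, 147, 119, 148 and 192 CPM in Grhl3 KO against 102, 99.99, 87.0, 109 and 81.4 CPM in wild type. Every Grhl3 KO library was above every wild-type library, with 1043 the highest (log2 fold change 0.64, 95% limits 0.35 to 0.92; adjusted p = 0.175 in edgeR, DESeq2 adjusted p = 0.00318). Gsto1, encoding an omega-class glutathione transferase, stood at 4539, 5296, 4328, 7452 and 6802 CPM in Grhl3 KO against 2767, 2779, 3177, 3957 and 3067 CPM in wild type. Here 1036 was the highest library and the groups were again apart (log2 fold change 0.85, 95% limits 0.45 to 1.25; adjusted p = 0.206 in edgeR, DESeq2 adjusted p = 0.000919). The lowest Grhl3 KO library was 1035 for both genes, so leaving out 1043 could not make these CPM overlap. Without library 1043 the log2 fold change was 0.53 for Gss and 0.78 for Gsto1 (adjusted p = 0.267 and 0.379 in edgeR). In DESeq2 without 1043 the adjusted p was 0.00643 for Gss and 0.0102 for Gsto1, a fit added after seeing the data. With each library left out in turn Gss ran from 0.53 to 0.71 and Gsto1 from 0.73 to 0.94.

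Genes for partners and relatives of NRF2 in DNA binding had positive differences that edgeR did not call. The small MAF gene Mafg stood at 133, 122, 120.4, 124 and 118 CPM in Grhl3 KO against 90.0, 89.7, 109.8, 112 and 92.8 CPM in wild type, all Grhl3 KO libraries above all wild-type libraries and 1043 the lowest of the 5 (log2 fold change 0.32, 95% limits 0.13 to 0.52; adjusted p = 0.409 in edgeR). Maff had a positive difference too (log2 fold change 0.64, edgeR adjusted p = 0.478). Nfe2l1, encoding the related factor NRF1, had 0.28 and the membrane-bound transferase gene Mgst1 0.34 (edgeR adjusted p = 0.644 and 0.651). Of the 9 regulator genes in the wider list 7 were higher and 2 lower, with 0 called. The other groups gave 6 higher and 8 lower among 14 glutathione genes, 4 and 5 among 9 thioredoxin genes, 9 and 5 among 14 transferases, 4 and 2 among 6 NADPH genes, 2 and 2 among 4 superoxide and peroxide genes, 4 and 4 among 8 haem, iron and metal genes, and 12 and 5 among 17 detoxification and export genes.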

How the data were processed

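The values are whole-number counts by gene as deposited, made by the authors with featureCounts on GRCm38, per the submitters' processing notes; the aligner, annotation release and handling of multi-mapping reads: not given in the sources used here. By its name the table holds reverse-stranded counts of protein-coding genes only. Its 10 columns were matched to sample titles by sample number, and 0 other columns of per-sample values were present. Genes were kept with filterByExpr (minimum count 10, minimum total 15; 13731 genes), scaled by TMM and tested with edgeR 4.0.16 (quasi-likelihood, robust; R 4.3.3), with Benjamini-Hochberg adjustment over all genes tested and a threshold of 0.05. Each log2 fold change is Grhl3 KO relative to wild type, and log2 CPM carries a prior count of 2. Exact two-sided permutation tests covered all assignments of the libraries. Alternatives used other scalings, filters and covariates, DESeq2 1.42.0, limma 3.58.1 and each library left out; the Gclc to Gclm ratio, DESeq2 and the muscle markers without library 1043, and the rescaled counts of highest libraries, were added after seeing the data.

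The 36 genes, the wider lists and the markers were chosen with earlier results of these data known. Values by library were printed for the 3 genes of smallest p and the 2 regulators. They were also printed for genes that moved by over 0.3 without library 1043, and genes with a library far from the others. Of the wider list, the 6 of smallest p were named, and Akr1a1 and Slc3a2 were named after their values were seen. Positions and exon lengths come from GENCODE M21 (GRCm38), and near-identical stretches (at least 75 bases, at least 95% identity) from blastn 2.17.0 on its transcripts. Promoter sequences come from RefSeq.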

Additional observations from a re-analysis of the deposited data

Results flagged for a closer look

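In 4 of the 72 gene and group combinations examined, a single library lay far from the other 4 of its group on the log2 CPM scale (its gap to the nearest library exceeded 0.71 of the group's range), where chance gives about 1 in 20. All 4 were low wild-type libraries. For Gpx2 (a gap of 0.804 of the range), library 1048 stood at 8.92 log2 CPM against 9.46 to 9.59. For Gstm1 (0.754), whose transcript is nearly identical to a pseudogene over 51.0% of its length, 1048 stood at 6.37 against 7.20 to 7.47. For Akr1b8 (0.747), library 1028 stood at 6.25 against 7.70 to 8.20, and for Abcc1 (0.791) it stood at 7.10 against 7.78 to 7.95. Grhl3 KO library 1043 was not among them; its nearest case was Cbr1, with a gap of 0.701.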

How the results depend on the processing

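None of the 36 genes passed an adjusted p of 0.05 under any of the 22 alternatives; the smallest adjusted p were 0.0914 for Nqo1 and 0.13 for Gclc, both in DESeq2. The number of genes with a higher level in Grhl3 KO ran from 20 (without Grhl3 KO library 1043) to 31 (number series as a term), and the median log2 fold change from 0.0479 to 0.35 in the same settings. Library 1043 held the highest level of 20 of the 36 genes with DESeq2 size factors, with total counts and with the muscle genes removed. Of the wider list, DESeq2 called 2 genes in place of 0, and over all genes 118 in place of 11. The count of genes whose groups do not overlap ran from 0 to 1 with a library left out: Gclc without Grhl3 KO library 1027 or wild-type library 1561, and Nqo1 without wild-type library 1555. Each time the library left out was that gene's lowest of Grhl3 KO or highest of wild type, so the separation follows from leaving it out. The share over all genes was not computed for these settings, so nothing is read from these counts. With the number series as a term, Abcc1 at 0.126, Gclm at 0.227, Gsr at 0.591, Keap1 at 0.0332, Taldo1 at 0.148, Txn1 at −0.125 and Ugdh at 0.00833 changed sign. In limma voom with quality weights, Gclm at 0.0276 changed sign. Without wild-type libraries 1528 and 1555, Gclm at 0.00527, Gsr at 0.251, Gstm3 at −0.0803, Me1 at 0.0256 and Taldo1 at 0.065 changed sign. With the epithelial level as a term, Hmox1 at 0.159, Me1 at 0.412 and Taldo1 at 0.00968 changed sign. With the muscle level as a term, Nfe2l2 at −0.0193 changed sign. With 1 library left out, genes that changed sign spanned these log2 ranges: Fth1 −0.0198 to 0.188, Gclm −0.0862 to 0.0824, Gpx2 −0.0197 to 0.215, Gsr −0.401 to 0.104, Gsta3 −0.103 to 0.458, Gsta4 −0.0884 to 0.141, Me1 −0.321 to 0.0177, Nfe2l2 −0.0557 to 0.124, Osgin1 −0.119 to 0.272, Pgd −0.0301 to 0.181 and Taldo1 −0.214 to 0.0123. The cause of these changes was not tested. Depth limits Gstm3, which was not tested at 1 CPM in 5 libraries. No paired analysis was possible because the groups share no replicate numbers.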
